A study of Homo sapiens with 15 samples.

Results

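Wild-type HT1080 cells given the class IIa deacetylase inhibitor TMP195 were compared with untreated HT1080 cells whose KDAC4 carried the H976Y change. HT1080 is an established human fibrosarcoma line. The comparison was defined by the sample labels: 3 libraries of wild-type cells, exposed to TMP195 at 1 µM over 2 days, and 4 libraries of KDAC4 H976Y cells, so 7 of the 15 samples of the series. KDAC4 is the protein of the gene HDAC4, and the labels give its genotype as HDAC4H976Y with treatment none. The variants are called inactivated or enhanced in the series' design, and H976Y is taken here as enhanced, since tyrosine at this place is known to make class IIa enzymes more active. Both groups were grown in the same serum-supplemented medium, and total RNA from frozen pellets was depleted of ribosomal RNA before paired-end sequencing. Drug and genotype therefore differed at once between the groups, and neither group is an untreated wild type. Untreated wild-type cells were not used here. The labels do not say whether the variant line was 1 clone, whether both alleles were changed, or whether libraries came from separate cultures. The p-values measure the spread between these libraries, which may be technical. Gene counts carry no allele, so the genotype label was not checked.

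Class IIa lysine deacetylases (HDAC4, HDAC5, HDAC7 and HDAC9) shuttle between cytoplasm and nucleus and are kept out of the nucleus when kinases phosphorylate them and 14-3-3 proteins bind. In the nucleus they bind MEF2 transcription factors and bring in NCoR corepressor complexes that hold HDAC3. Vertebrate class IIa enzymes have a histidine where other deacetylases have a catalytic tyrosine, and their own deacetylase activity is very low. Replacing this histidine by tyrosine restores activity toward standard acetyl-lysine substrates. TMP195 occupies the catalytic pocket of the class and leaves the MEF2-binding region untouched.

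The libraries differed between the groups in more than single genes. Total counts were 14007440, 14699009 and 12791994 with TMP195 and 8238344, 11343873, 11211847 and 6151417 with KDAC4 H976Y, so that 1 CPM (a count per 1e+06 scaled counts) stood for 4.82 to 17.5 counts. With KDAC4 H976Y, 16.1% to 31.5% of counts fell on mitochondrial ribosomal RNA, and with TMP195 at most 0.000701%. Small nucleolar RNA took 0.742% to 0.937% against 0.0541% to 0.0596%, and nuclear protein-coding genes 52.6% to 70.4% against 82.1% to 85.3%. KDAC4 H976Y replicate 4 stood apart within its group, with 31.5% mitochondrial ribosomal RNA against 16.1% to 17.2% in replicates 1 to 3. Its counts differed from theirs by a mean chi-square of 56.9 to 69.8 per gene, against 3.02 to 5.11 among replicates 1 to 3 and 4.15 to 12.98 among the TMP195 libraries. Between the groups this mean was 282 to 532. Preparation, genotype and drug cannot be told apart in these differences.

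**Figure D1:**
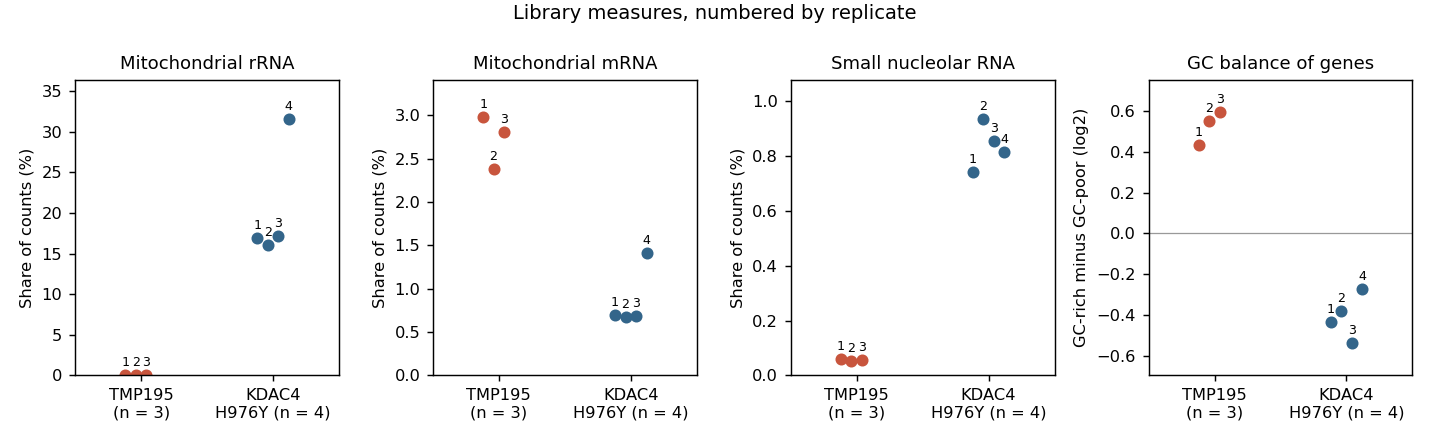
Shares of each library's counts (%, from 0) taken by mitochondrial ribosomal RNA, mitochondrial mRNA and small nucleolar RNA, and the median log2 deviation of the GC-rich quintile of genes minus that of the GC-poor quintile. Points are libraries, numbered by replicate. The groups do not overlap in any panel, and KDAC4 H976Y replicate 4 lies at 31.5% mitochondrial ribosomal RNA, above replicates 1 to 3.

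Across 16298 tested genes, 4144 (25.4%) were called, at an adjusted p under 0.05 and a difference of at least 2-fold. They split into 2108 (12.9%) higher with TMP195 and 2036 (12.5%) lower, and 1264 differed by at least 4-fold. All directions below are TMP195 minus KDAC4 H976Y. The 2 groups' libraries did not overlap in 3908 of the 4144 called genes and in 9287 (57%) of all tested genes. The median log2 fold change of all tested genes was -0.0014. Antisense genes (268 higher and 103 lower of 932) and pseudogenes (414 and 126 of 1094) were called higher more often than lower. Long intergenic RNAs were called 124 times higher and 180 times lower of 714. Strand use in the counting is not given in the sources used here, so reads of a gene and of its antisense partner could not be told apart.

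The differences followed GC content. The median log2 fold change was -0.68 in the quintile of nuclear protein-coding genes with the lowest GC content, -0.35, 0.02 and 0.21 in the next ones and 0.29 in the highest. In the lowest quintile 41 genes were called higher and 714 lower, and in the highest 354 and 88. With offsets for GC content and transcript length fitted to each library, every quintile had a median between -0.14 and -0.12. The calls then numbered 3493 (21.4%), with 2102 (12.9%) higher and 1391 (8.53%) lower. Of the 4144 calls, 2817 were kept in the same direction. A model of all 14 count libraries of the series, in which the other variants share the estimate of spread, called 2214 of 17780 genes (12.5%), with 1001 higher (5.63%) and 1213 lower (6.82%), and kept 2072 of the 4144 calls. Each gene group below is given with its count in the 7-library fit. With total counts as library sizes, which moved the median of all genes by 0.46, the calls were 4131 higher and 1048 lower. The count of a group under the offsets, the 14-library fit or total counts follows where it moved by over 1.5 times. A count that did not move can still stand for different genes. Lost calls of single genes are listed mainly for the genes chosen by the naming rule given below. Other members given as called can lose the call as well. With GC and length offsets this held, among others, for AMOTL2 (0.80), LOXL2 (0.62), ITGB3 (0.96), IL1RAP (-0.82), HMGCS1 (-0.92) and SC5D (-0.79). In the 14-library fit it held, among others, for MMP1 (1.77), FN1 (-1.13) and PCDH7 (1.58). There it also held for HMGCS1 (-1.40), CYP51A1 (-1.59), SC5D (-1.51), INSIG1 (-1.42), ABCA1 (-1.43), IL1R1 (-1.19) and IL1RAP (-1.06). Whether preparation had a part in any group was not tested.

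**Figure D2:**
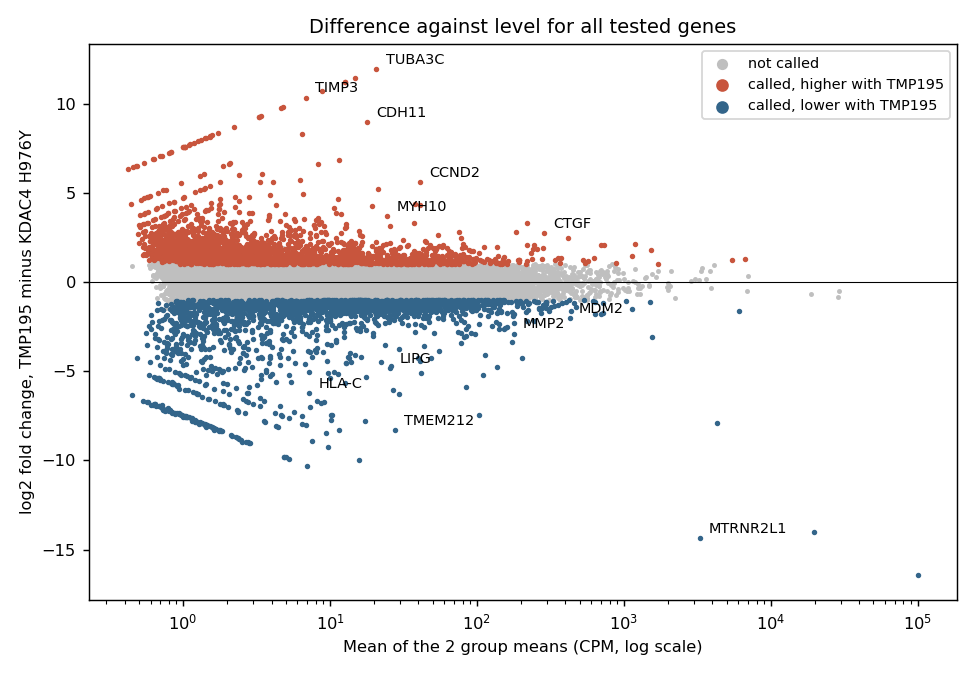
The log2 fold change (TMP195 minus KDAC4 H976Y) of each tested gene except chromosome Y genes against the mean of the group means in CPM (log scale); called genes are coloured by direction. The scatter is widest at low levels, the lines of points at the left edge are genes with no counts in 1 group, and MTRNR2L1 stands alone at -14.37.

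The genes with the largest rise relative to KDAC4 H976Y, among those of at least 10 CPM in the higher group, were close to silent in the variant cells. TIMP3 stood at 14.9, 13.6 and 12.95 CPM with TMP195 and at 0, 0, 0 and 0 CPM with KDAC4 H976Y, so at least 149.6-fold higher (bound of 3 counts over the group). TIMP3 (ENSG00000100234, chr22:32801701-32863043) encodes an inhibitor of matrix metalloproteases that stays bound to the matrix. PXDN stood at 19.3, 17.3 and 16.4 CPM with TMP195 and at 0, 0, 0 and 0 CPM with KDAC4 H976Y, at least 191-fold higher. PXDN (ENSG00000130508, chr2:1631887-1744852) encodes peroxidasin, which crosslinks collagen IV in basement membranes. CDH11 stood at 41.8, 32.6 and 33.2 CPM with TMP195 and at 0.134, 0, 0.0998 and 0 CPM with KDAC4 H976Y, a ratio of counts of 582 with a 95% counting interval of 161 to 4808. CDH11 (ENSG00000140937, chr16:64943753-65126112) encodes the mesenchymal cadherin 11. TUBA3C stood at 44.3, 48.3 and 31.7 CPM with TMP195 and at 0, 0, 0 and 0 CPM with KDAC4 H976Y, at least 451-fold higher. This alpha tubulin (ENSG00000198033, chr13:19173770-19181852) has near-identical copies, so its share of their reads is uncertain.

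CCND2, which encodes the D-type cyclin 2 that activates CDK4 and CDK6, was the most abundant of these genes with TMP195. CCND2 stood at 83.4, 82.03 and 77.7 CPM with TMP195 and at 1.47, 1.88, 2.19 and 0.622 CPM with KDAC4 H976Y (log2 fold change 5.59 ± 0.18, adjusted p = 1.27e-07). It lies at chr12:4273772-4305350 (ENSG00000118971). MAGED1 stood at 72.1, 75.9 and 68.3 CPM with TMP195 and at 3.21, 3.66, 3.19 and 4.35 CPM with KDAC4 H976Y (log2 fold change 4.35 ± 0.12, adjusted p = 1.04e-07). MAGED1 encodes a MAGE family protein, and it and CCND2 were low in every KDAC4 H976Y library. DNM1 stood at 38.1, 36.8 and 48.2 CPM with TMP195 and at 0.668, 1.09, 0.698 and 2.49 CPM with KDAC4 H976Y (log2 fold change 5.22 ± 0.27, adjusted p = 1.05e-06). DNM1 encodes dynamin 1, the GTPase that pinches off endocytic vesicles. ZNF544 stood at 31.6, 34.95 and 43.6 CPM with TMP195 and at 1.60, 1.88, 2.10 and 1.87 CPM with KDAC4 H976Y (log2 fold change 4.28 ± 0.17, adjusted p = 2.06e-07). HSPA12A stood at 22.2, 23.1 and 23.5 CPM with TMP195 and at 0.134, 0.0989, 0.0998 and 0.622 CPM with KDAC4 H976Y (log2 fold change 6.86 ± 0.30, adjusted p = 3.50e-07). HSPA12A encodes a distant relative of the HSP70 chaperones, and ZNF544 a zinc finger protein. ALS2CL stood at 20.95, 18.8 and 25.7 CPM with TMP195 and at 0.668, 0.890, 0.998 and 0.830 CPM with KDAC4 H976Y (log2 fold change 4.65 ± 0.20, adjusted p = 3.69e-07). TRIML2 stood at 10.9, 11.8 and 13.9 CPM with TMP195 and at 0.134, 0, 0.299 and 0.622 CPM with KDAC4 H976Y (log2 fold change 5.74 ± 0.42, adjusted p = 6.94e-06). Lack of overlap between the groups was part of how these genes were chosen, so it is no result about them. The threshold was missed, at the log2 fold change in brackets, for PXDN (10.87) in the 14-library fit.

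The genes with the largest fall relative to KDAC4 H976Y were led by MTRNR2L1, a nuclear copy of the mitochondrial 16S ribosomal RNA gene. MTRNR2L1 stood at 0.240, 0.172 and 0.510 CPM with TMP195 and at 5080.4, 4819.8, 5105 and 11381 CPM with KDAC4 H976Y (log2 fold change -14.37 ± 0.60, adjusted p = 3.02e-07). MTRNR2L1 lies at chr17:22523111-22524663, and its reads can come from the mitochondrial gene, which differed in the same direction. IFNLR1 stood at 0, 0 and 0 CPM with TMP195 and at 8.42, 7.22, 5.39 and 19.1 CPM with KDAC4 H976Y, at least 144-fold lower. IFNLR1 (ENSG00000185436, chr1:24154157-24187959) encodes the ligand-binding chain of the interferon lambda receptor. HLA-C stood at 0.180, 0.172 and 0.191 CPM with TMP195 and at 12.6, 15.6, 14.9 and 14.1 CPM with KDAC4 H976Y (log2 fold change -6.23 ± 0.24, adjusted p = 1.86e-07). HLA-C encodes an HLA class I heavy chain, and its reads compete with those of near-identical HLA genes and alleles. TMEM212 stood at 0.180, 0.172 and 0.128 CPM with TMP195 and at 43.6, 37.8, 31.9 and 109 CPM with KDAC4 H976Y (log2 fold change -8.30 ± 0.69, adjusted p = 1.23e-05). CYSLTR1 stood at 0.660, 1.09 and 0.383 CPM with TMP195 and at 39.97, 36.9, 32.9 and 125 CPM with KDAC4 H976Y (log2 fold change -6.28 ± 0.66, adjusted p = 4.47e-05). CYSLTR1 encodes a receptor for cysteinyl leukotrienes. KYNU stood at 0.0600, 0.114 and 0.255 CPM with TMP195 and at 14.3, 11.4, 9.78 and 28.8 CPM with KDAC4 H976Y (log2 fold change -6.69 ± 0.59, adjusted p = 1.58e-05). FRK stood at 0.0600, 0.172 and 0.0638 CPM with TMP195 and at 15.5, 12.8, 12.6 and 39.8 CPM with KDAC4 H976Y (log2 fold change -7.46 ± 0.70, adjusted p = 2.21e-05). KYNU encodes kynureninase of tryptophan breakdown, and FRK a Src-related kinase.

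MPV17L stood at 0, 0 and 0.0638 CPM with TMP195 and at 15.1, 15.4, 9.88 and 37.5 CPM with KDAC4 H976Y, a ratio of counts of 843 (interval 151 to 33359) in favour of KDAC4 H976Y. ZNF665 stood at 0.0600, 0 and 0 CPM with TMP195 and at 12.4, 11.3, 8.58 and 28.2 CPM with KDAC4 H976Y, a ratio of 659 (interval 118 to 26081). MPV17L is named for its likeness to a protein of the inner mitochondrial membrane, and ZNF665 encodes a zinc finger protein. ZNF471 stood at 0, 0.0572 and 0.191 CPM with TMP195 and at 17.4, 14.6, 13.7 and 34.8 CPM with KDAC4 H976Y (log2 fold change -7.75 ± 0.62, adjusted p = 9.69e-06). POTEC stood at 0.0600, 0.172 and 0.191 CPM with TMP195 and at 24.997, 25.9, 18.4 and 68.4 CPM with KDAC4 H976Y (log2 fold change -7.79 ± 0.71, adjusted p = 2.02e-05). POTEC belongs to a family of near-identical genes, and its level is uncertain for that reason. CRX stood at 0, 0.114 and 0 CPM with TMP195 and at 12.3, 10.4, 7.58 and 21.4 CPM with KDAC4 H976Y, a ratio of 289 (interval 79.4 to 2393). CRX encodes a photoreceptor transcription factor. In 11 of these 12 genes, all but HLA-C, KDAC4 H976Y replicate 4 held the highest level, at 2.12 to 3.41 times the mean of replicates 1 to 3. Mitochondrial ribosomal RNA and MTRNR2L1 were also highest in that library, at 31.5% of counts and 2.28 times the mean of the others. Over the 114 genes of at least 5 CPM in KDAC4 H976Y that were called lower by at least 16-fold, replicate 4 was the highest library in 95, and the median ratio was 2.38. Over all 1426 such genes called lower it was highest in 335, with a median ratio of 0.808. The part of this library in the largest falls was not tested. All 12 calls were kept without replicate 4.

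**Figure D3:**
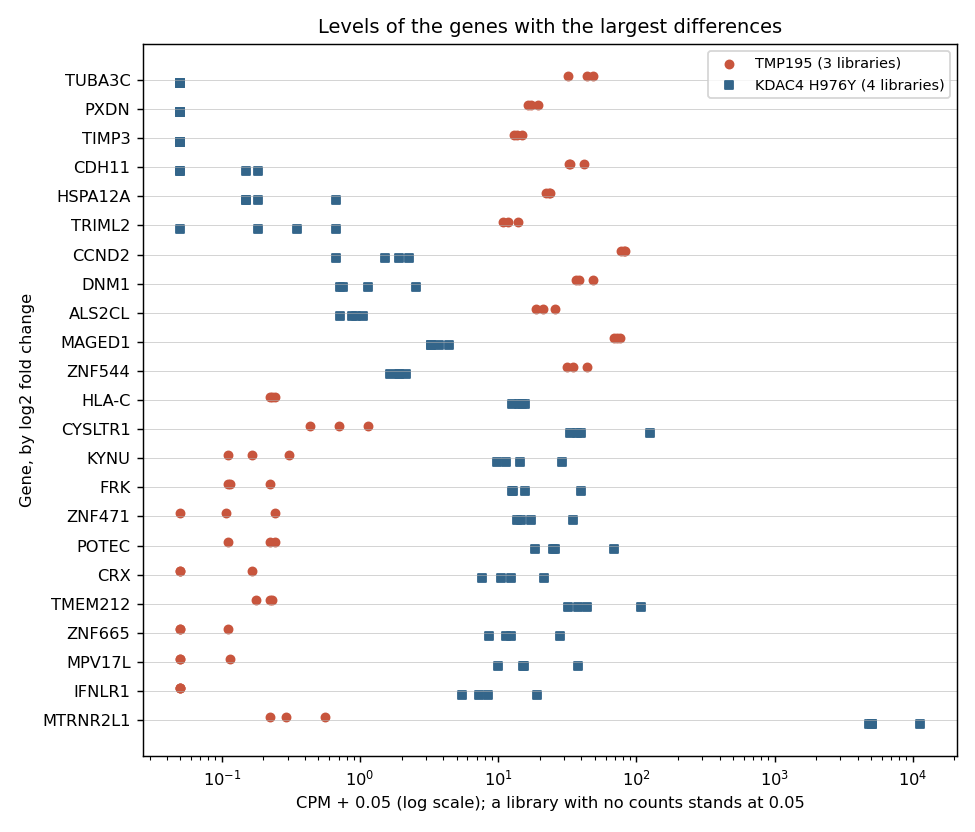
CPM + 0.05 (log scale) of the genes with the largest differences, ordered by log2 fold change; circles are the 3 TMP195 libraries and squares the 4 KDAC4 H976Y libraries. The groups are separated in every gene because the choice of genes required it. In most of the genes lower with TMP195 a single square, replicate 4, lies to the right of the others.

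The same genes were set beside the other variants of the series, on a CPM scale set over all 14 libraries, as a description with no test. CCND2 ranged over 113 to 162 CPM in KDAC4 H803A and 55.7 to 186 CPM in KDAC7 H709A, so it was high in every library except those of KDAC4 H976Y. HSPA12A (16.2 to 18.9 and 14.8 to 17.5 CPM), MAGED1 (41.3 to 59.6 and 25.4 to 71.5) and ZNF544 (24.6 to 39.7 and 37.5 to 76.6) followed the same order. ADAMTS2 was the reverse case, at 0 to 0.0969 CPM in KDAC4 H803A and at 0 in every KDAC7 H709A library, so that its counts were nearly all in the TMP195 libraries. Among the lower genes, TMEM212 (37.4 to 50.8 and 46.5 to 57.01 CPM), CYSLTR1 (47.3 to 75.1 and 46.5 to 78.95), FRK (17.4 to 29.9 and 19.03 to 29.8), KYNU (9.63 to 15.6 and 9.39 to 15.9) and HLA-C (8.99 to 16.1 and 11.1 to 31.2) were well above the TMP195 level in both other variants. These 5 genes were low in the TMP195 libraries against all 3 variants. MPV17L (6.65 to 17.0 and 8.76 to 18.9 CPM), ZNF471 (13.2 to 39.1 and 11.6 to 27.4) and POTEC (20.1 to 85.5 and 20.03 to 35.6) were as well. The other 4 leading lower genes were under 1 CPM in at least 1 library of each of these variants. MTRNR2L1 was at 0 to 5.59 and 0 to 20.4 CPM, IFNLR1 at 0 to 4.61 and 0.252 to 7.05, CRX at 0.0633 to 4.75 and 0.461 to 5.31, and ZNF665 at 0.380 to 6.49 and 0.210 to 10.8. LIPG (2.13 to 2.30 and 1.69 to 5.41 CPM) and VCAN (5.89 to 12.7 and 2.61 to 39.05) were instead low in both other variants, with KDAC4 H976Y the high group. PXDN ran from 0 to 116 CPM within KDAC4 H803A and from 0 to 116 within KDAC7 H709A, so libraries of 1 variant did not share a level.

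The drug's targets and the changed gene itself stayed under 2-fold in transcript level with TMM scaling. None of the class IIa genes was then called, with either edgeR or DESeq2. With total counts as library sizes 3 were called higher, HDAC5 at a log2 fold change of 1.12, HDAC7 at 1.26 and HDAC9 at 1.13, and HDAC4 reached 0.95. All 4 passed adjusted p under 0.05 with TMP195 on the higher side, and the median log2 fold change was 0.66. Over all tested genes 58.8% passed adjusted p under 0.05 with no minimum fold. HDAC4 stood at 20.8, 22.1 and 24.2 CPM with TMP195 and at 14.4, 14.5, 14.7 and 21.98 CPM with KDAC4 H976Y (log2 fold change 0.47 ± 0.15, adjusted p = 0.0224). HDAC4 overlapped between the groups, because KDAC4 H976Y replicate 4 lay level with the TMP195 libraries. HDAC5 stood at 50.3, 47.9 and 52.4 CPM with TMP195 and at 34.9, 29.8, 31.4 and 31.5 CPM with KDAC4 H976Y (log2 fold change 0.66 ± 0.09, adjusted p = 1.82e-04). HDAC7 stood at 106, 108 and 126 CPM with TMP195 and at 66.8, 62.02, 59.5 and 75.5 CPM with KDAC4 H976Y (log2 fold change 0.79 ± 0.11, adjusted p = 1.83e-04). HDAC9 stood at 50.1, 46.2 and 50.2 CPM with TMP195 and at 32.2, 30.4, 30.6 and 29.2 CPM with KDAC4 H976Y (log2 fold change 0.67 ± 0.08, adjusted p = 1.13e-04). HDAC5, HDAC9 and HDAC7, the most abundant of the 4 in CPM, had no overlap. With GC and length offsets HDAC4 turned to -0.13, HDAC5 and HDAC7 came to 0.07 and 0.21, and HDAC9 to 0.92.

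Among the other deacetylases and the subunits of their corepressor complexes, most genes stayed within 2-fold. Of the 25 tested genes of other deacetylases and corepressors (26 listed), 2 were called higher with TMP195 and 0 lower, with a median log2 fold change of -0.01. Over all tested genes 12.9% were called higher and 12.5% lower, which is the background for this and the following counts. HDAC6 stood at 23.00, 24.7 and 23.5 CPM with TMP195 and at 9.76, 13.1, 11.6 and 10.99 CPM with KDAC4 H976Y (log2 fold change 1.05 ± 0.12, adjusted p = 6.50e-05). HDAC6 encodes the mainly cytoplasmic class IIb enzyme that acts on tubulin. HDAC11 stood at 2.22, 2.92 and 2.42 CPM with TMP195 and at 0, 0, 0 and 0 CPM with KDAC4 H976Y and was chosen after its values were seen. HDAC11 is the sole class IV enzyme, and its counts were all in the TMP195 libraries. HDAC3 (0.28), the catalytic partner of class IIa enzymes, and the scaffold NCOR1 (0.16) were not called, nor were HDAC1 (-0.44) and HDAC2 (-0.68). The counts of genes of other deacetylases and corepressors became 6 higher and 0 lower with total counts as library sizes, 1 higher and 1 lower with offsets for GC content and length and 1 higher without KDAC4 H976Y replicate 1. No call was made, at the bracketed log2 fold change, for HDAC6 (0.52) with GC and length offsets and HDAC6 (0.98) without KDAC4 H976Y replicate 1.

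MEF2 factors are the main partners of class IIa enzymes on DNA, and KLF and NR4A genes are known to be MEF2-regulated in several tissues. Of the 13 tested MEF2 and MEF2-regulated genes (24 listed), 2 were called higher with TMP195 and 0 lower, with a median log2 fold change of 0.35. MEF2A stood at 45.03, 39.8 and 38.3 CPM with TMP195 and at 53.3, 55.00, 57.8 and 48.5 CPM with KDAC4 H976Y (log2 fold change -0.39 ± 0.10, adjusted p = 0.00601). MEF2C stood at 3.06, 1.89 and 1.60 CPM with TMP195 and at 4.54, 4.06, 4.39 and 3.73 CPM with KDAC4 H976Y (log2 fold change -0.94 ± 0.28, adjusted p = 0.0151). MEF2D stood at 107, 106 and 102 CPM with TMP195 and at 68.3, 74.6, 66.7 and 71.8 CPM with KDAC4 H976Y (log2 fold change 0.58 ± 0.08, adjusted p = 2.05e-04). None of the 3 tested MEF2 genes was called, and MEF2A and MEF2C lay on the lower side. With total counts as library sizes MEF2D was called higher, at 1.05. KLF2 stood at 39.7, 45.1 and 42.2 CPM with TMP195 and at 9.22, 13.8, 10.3 and 13.7 CPM with KDAC4 H976Y (log2 fold change 1.86 ± 0.14, adjusted p = 8.04e-06). KLF2 encodes a zinc finger factor known from quiescent endothelium and lymphocytes. KLF4 stood at 2.82, 3.03 and 4.15 CPM with TMP195 and at 0.401, 0.0989, 0.200 and 0 CPM with KDAC4 H976Y (log2 fold change 4.10 ± 0.49, adjusted p = 9.62e-05), chosen after its values were seen. Both KLF genes were higher in every TMP195 library. NR4A1 (0.85), NR4A2 (-0.97), JUN (0.35) and KLF6 (0.85) were not called. With GC and length offsets MEF2A, MEF2C and MEF2D were at -0.13, -0.58 and 0.02. The counts of MEF2 and MEF2-regulated genes became 6 higher and 0 lower with total counts as library sizes, 2 higher and 1 lower with offsets for GC content and length, 1 lower without KDAC4 H976Y replicate 2 and 1 lower without TMP195 replicate 1.

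Immediate early genes are switched on within minutes of growth-factor or stress signals. Of the 19 tested immediate early genes (22 listed), 3 were called higher with TMP195 and 1 lower, with a median log2 fold change of 0.38. EGR1 stood at 16.5, 10.5 and 18.8 CPM with TMP195 and at 1.47, 1.48, 0.898 and 1.04 CPM with KDAC4 H976Y (log2 fold change 3.62 ± 0.28, adjusted p = 7.98e-06). EGR1 encodes a zinc finger factor induced through ERK and SRF. MAFF stood at 39.1, 42.2 and 46.3 CPM with TMP195 and at 12.4, 12.1, 14.8 and 10.4 CPM with KDAC4 H976Y (log2 fold change 1.76 ± 0.12, adjusted p = 5.25e-06). MAFF encodes a small MAF protein. BTG2 stood at 7.39, 7.89 and 8.10 CPM with TMP195 and at 26.5, 27.2, 27.3 and 21.2 CPM with KDAC4 H976Y (log2 fold change -1.72 ± 0.13, adjusted p = 6.75e-06). BTG2, an antiproliferative gene that p53 also drives, was the sole member lower. FOS (0.85), FOSB (0.80), FOSL1 (0.78), ATF3 (0.93) and SRF (0.87) stayed under 2-fold, and MYC was level (0.04). Total counts as library sizes gave 9 immediate early genes higher and 1 lower.

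Dual-specificity phosphatases and Sprouty proteins are made in response to ERK activity and dampen it. Of the 17 tested ERK feedback genes (19 listed), 4 were called higher with TMP195 and 0 lower, with a median log2 fold change of 0.40. SPRY4 stood at 90.9, 95.5 and 95.3 CPM with TMP195 and at 21.1, 23.7, 19.95 and 26.1 CPM with KDAC4 H976Y (log2 fold change 2.06 ± 0.10, adjusted p = 8.07e-07). DUSP5 stood at 107, 104 and 102 CPM with TMP195 and at 36.5, 42.3, 44.5 and 33.4 CPM with KDAC4 H976Y (log2 fold change 1.40 ± 0.11, adjusted p = 7.30e-06). SPRY2 stood at 47.8, 42.8 and 40.8 CPM with TMP195 and at 18.2, 21.7, 22.2 and 14.7 CPM with KDAC4 H976Y (log2 fold change 1.17 ± 0.13, adjusted p = 7.44e-05). SPRY4 and SPRY2 are Sprouty inhibitors, and DUSP5 dephosphorylates ERK in the nucleus. DUSP8 (1.12) was the other call, while SPRY1 (-1.03) and DUSP4 (-0.002) were not called. The counts of ERK feedback genes became 7 higher and 0 lower with total counts as library sizes and 1 lower without TMP195 replicate 1. Among alternatives, the call was lost (log2 fold change in brackets) for SPRY2 (0.57) with chromosome offsets. DUSP8 was not called with GC and length offsets (0.52) or in the 14-library fit (1.12).

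Ligands and receptor tyrosine kinases were called in both directions, in shares near the 12.9% higher and 12.5% lower of all tested genes. Of the 32 tested genes of receptor tyrosine kinases and their ligands (45 listed), 5 were called higher with TMP195 and 4 lower, with a median log2 fold change of 0.13. FGF1 stood at 5.70, 4.40 and 5.61 CPM with TMP195 and at 1.20, 1.19, 2.00 and 1.66 CPM with KDAC4 H976Y (log2 fold change 1.79 ± 0.26, adjusted p = 3.21e-04). FGF7 stood at 1.86, 1.54 and 1.66 CPM with TMP195 and at 4.95, 4.45, 4.89 and 7.67 CPM with KDAC4 H976Y (log2 fold change -1.67 ± 0.27, adjusted p = 5.15e-04). FGF1 and FGF7 encode fibroblast growth factors and stood on opposite sides. NRG1 stood at 47.2, 44.6 and 42.2 CPM with TMP195 and at 20.6, 22.9, 20.7 and 24.1 CPM with KDAC4 H976Y (log2 fold change 1.02 ± 0.09, adjusted p = 2.12e-05). NRG1 encodes neuregulin, a ligand of ERBB receptors. FGFR4 stood at 1.501, 1.66 and 1.15 CPM with TMP195 and at 0, 0.0989, 0 and 0 CPM with KDAC4 H976Y and ERBB4 stood at 0.120, 0.229 and 0.128 CPM with TMP195 and at 1.07, 1.09, 1.20 and 0.830 CPM with KDAC4 H976Y. These receptors were chosen after their values were seen, and both were low in all libraries. EGFR (0.92), FGFR1 (0.97), MET (-0.60) and PDGFRB (-0.20) were not called. The counts of genes of receptor tyrosine kinases and their ligands became 11 higher and 3 lower with total counts as library sizes, 2 higher and 1 lower in the 14-library fit, 2 lower without KDAC4 H976Y replicate 1 and 2 lower without KDAC4 H976Y replicate 3. Calls were lost, at the log2 fold change in brackets, for FGF7 (-0.92) with GC and length offsets, FGF7 (-1.67) and NRG1 (1.03) in the 14-library fit and NRG1 (0.99) without KDAC4 H976Y replicate 1. They were also lost for NRG1 (0.997) without KDAC4 H976Y replicate 3 and NRG1 (0.98) without TMP195 replicate 1.

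CCND2 was the sole member of the list of cyclins and CDKs called higher. Of the 18 tested genes of cyclins, CDKs and CDK inhibitors (21 listed), 1 was called higher with TMP195 and 2 lower, with a median log2 fold change of 0.03. CCND1 (0.64), CCND3 (0.02), CDK4 (-0.24) and CDK6 (-0.63) were not called. CDKN1B stood at 12.6, 16.1 and 12.4 CPM with TMP195 and at 35.6, 29.2, 24.3 and 27.8 CPM with KDAC4 H976Y (log2 fold change -1.09 ± 0.15, adjusted p = 2.21e-04). CCNE2 stood at 6.18, 4.63 and 5.23 CPM with TMP195 and at 11.9, 12.3, 12.2 and 7.05 CPM with KDAC4 H976Y (log2 fold change -1.04 ± 0.21, adjusted p = 0.00200). CDKN1B encodes the CDK inhibitor p27 and CCNE2 cyclin E2, and both lay near the 2-fold minimum. Of the 33 tested cell cycle and replication genes (33 listed), 0 were called higher with TMP195 and 1 lower, with a median log2 fold change of -0.05. CDK1 stood at 29.4, 24.1 and 23.9 CPM with TMP195 and at 58.7, 68.4, 75.6 and 45.00 CPM with KDAC4 H976Y (log2 fold change -1.27 ± 0.17, adjusted p = 1.56e-04). The proliferation marker MKI67 (0.26), TOP2A (-0.73) and MCM3 (0.95) were not called. The counts of genes of cyclins, CDKs and CDK inhibitors became 3 higher and 0 lower with total counts as library sizes, 1 higher and 1 lower in the 14-library fit, 1 lower without KDAC4 H976Y replicate 1, 1 lower without KDAC4 H976Y replicate 2, 1 lower without KDAC4 H976Y replicate 3 and 1 lower without TMP195 replicate 2. The counts of cell cycle and replication genes became 3 higher and 0 lower with total counts as library sizes, 0 higher and 0 lower with offsets for GC content and length and 0 higher and 0 lower in the 14-library fit. The threshold was missed, at the log2 fold change in brackets, for CCNE2 (-0.33) and CDK1 (-0.34) with GC and length offsets, CCNE2 (-1.03) and CDK1 (-1.27) in the 14-library fit, CDKN1B (-0.63), CCNE2 (-0.59) and CDK1 (-0.82) with total counts as library sizes, CDKN1B (-0.999) and CCNE2 (-0.95) in a fit of nuclear protein-coding genes and CDKN1B (-0.98) among genes of at least 10 CPM on average. The same held for CCNE2 (-0.93) with chromosome offsets, CDKN1B (-0.99) without KDAC4 H976Y replicate 1, CCNE2 (-0.99) without KDAC4 H976Y replicate 2, CCNE2 (-0.98) without KDAC4 H976Y replicate 3 and CCNE2 (-0.95) without TMP195 replicate 2.

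Targets of the Hippo pathway effectors YAP and TAZ, which act through TEAD factors, included 3 abundant matricellular and stress genes that were higher with TMP195. Of the 22 tested CCN and YAP target genes (23 listed), 8 were called higher with TMP195 and 0 lower, with a median log2 fold change of 0.72. CTGF (CCN2) stood at 520.02, 542 and 435 CPM with TMP195 and at 72.2, 76.6, 75.2 and 72.4 CPM with KDAC4 H976Y (log2 fold change 2.75 ± 0.10, adjusted p = 1.86e-07). CYR61 (CCN1) stood at 698, 723 and 696 CPM with TMP195 and at 110.3, 142, 116 and 152 CPM with KDAC4 H976Y (log2 fold change 2.44 ± 0.13, adjusted p = 1.08e-06). ANKRD1 stood at 133, 139 and 119 CPM with TMP195 and at 29.01, 29.9, 33.3 and 26.3 CPM with KDAC4 H976Y (log2 fold change 2.13 ± 0.10, adjusted p = 6.14e-07). CCN2 and CCN1 are secreted matricellular proteins and ANKRD1 is an ankyrin repeat cofactor, and the lowest TMP195 library of each was more than 3 times the highest KDAC4 H976Y library. On the 14-library scale CTGF was at 308 to 643 CPM in KDAC4 H803A and 324 to 931 CPM in KDAC7 H709A. CYR61 was at 641 to 790 and 543 to 1393 CPM, and ANKRD1 at 104 to 174 and 77.5 to 181 CPM. All 3 genes were thus low in KDAC4 H976Y against both other variants too. The Hippo kinase LATS2 (1.87), FJX1 (1.65), CRIM1 (1.36), AMOTL2 (1.28) and ARHGEF17 (1.09) were also called higher. The effectors YAP1 (-0.05) and WWTR1 (-0.65), which encodes TAZ, and the factors TEAD1 (0.37) and TEAD4 (0.70) were not called, and NOV (CCN3) was at -0.99 without a call. The counts of CCN and YAP target genes became 13 higher and 0 lower with total counts as library sizes, 1 lower without KDAC4 H976Y replicate 1, 1 lower without KDAC4 H976Y replicate 4 and 1 lower without TMP195 replicate 1.

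The promoters of CCN2 and ANKRD1 are shown because these genes moved together and both hold the TEAD-binding letters GGAATG or its reverse CATTCC, in capitals. Each sequence is the 250 bases before the RefSeq start (GRCh38.p14, strand -), at chr6:131951373-131951622 for CCN2 and chr10:90921088-90921337 for ANKRD1.
CCN2: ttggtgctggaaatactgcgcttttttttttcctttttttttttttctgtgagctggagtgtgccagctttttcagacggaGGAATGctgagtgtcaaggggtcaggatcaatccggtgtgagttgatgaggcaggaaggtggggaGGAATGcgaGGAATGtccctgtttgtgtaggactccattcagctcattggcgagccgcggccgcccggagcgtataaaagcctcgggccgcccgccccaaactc
ANKRD1: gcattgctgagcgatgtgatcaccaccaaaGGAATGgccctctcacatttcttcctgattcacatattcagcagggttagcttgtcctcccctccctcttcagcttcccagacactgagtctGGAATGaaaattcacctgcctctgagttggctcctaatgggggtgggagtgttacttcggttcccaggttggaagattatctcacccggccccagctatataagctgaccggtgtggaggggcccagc
CCN2 holds 3 matches, which begin 169, 104 and 95 bases before the start, and ANKRD1 holds 2, at 220 and 128 bases. On either strand these letters stand in the upstream 250 bases of 3902 of 27305 genes (14.3%) and of 8 of 15 tested list members with a promoter entry (53.3%), among them 3 of 5 called members. YAP target genes are partly known through such sites, so the share describes the list, and a match is not a measured site. AMOTL2, the other called gene with a match, stood at 394, 413 and 365 CPM with TMP195 and at 164, 165, 158 and 153 CPM with KDAC4 H976Y.

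TGF-beta family genes moved both ways. Of the 27 tested TGF-beta family genes and SMAD targets (35 listed), 4 were called higher with TMP195 and 7 lower, with a median log2 fold change of -0.04. INHBB stood at 9.25, 7.26 and 8.17 CPM with TMP195 and at 0.535, 0.594, 0.200 and 0.207 CPM with KDAC4 H976Y (log2 fold change 4.33 ± 0.32, adjusted p = 7.16e-06). INHBA stood at 30.9, 28.5 and 22.7 CPM with TMP195 and at 89.3, 93.1, 93.9 and 84.4 CPM with KDAC4 H976Y (log2 fold change -1.72 ± 0.11, adjusted p = 4.23e-06). INHBB and INHBA encode the beta B and beta A chains of activins and stood on opposite sides. PMEPA1 stood at 7.57, 8.58 and 5.87 CPM with TMP195 and at 27.7, 26.4, 27.8 and 24.9 CPM with KDAC4 H976Y (log2 fold change -1.86 ± 0.14, adjusted p = 7.34e-06). PMEPA1 is a SMAD-induced feedback gene. ID1 (1.53) and SMAD6 (1.37), genes of BMP signalling, were higher, and the receptors TGFBR1 (-1.20) and TGFBR3 (-1.33) lower. BMP7 stood at 0, 0 and 0 CPM with TMP195 and at 2.01, 2.18, 2.29 and 7.67 CPM with KDAC4 H976Y, chosen after its values were seen. TGFB1 (0.31), TGFB2 (-0.24) and SMAD7 (0.37) were not called. The counts of TGF-beta family genes and SMAD targets became 6 higher and 3 lower with total counts as library sizes and 4 higher and 4 lower in the 14-library fit. No call was made, at the bracketed log2 fold change, for PMEPA1 (-1.85) in the 14-library fit.

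The matrix differed in its parts rather than as a whole. Collagen VI chains were higher with TMP195. COL6A2 stood at 230.4, 221 and 206 CPM with TMP195 and at 52.7, 54.5, 50.9 and 68.02 CPM with KDAC4 H976Y (log2 fold change 1.96 ± 0.11, adjusted p = 1.80e-06). COL6A1 stood at 189.7, 176 and 166 CPM with TMP195 and at 78.9, 77.7, 68.4 and 89.4 CPM with KDAC4 H976Y (log2 fold change 1.18 ± 0.10, adjusted p = 1.61e-05). COL6A2 and COL6A1 form the collagen VI trimer with COL6A3, which was at 0.97 without a call. COL16A1 stood at 2.34, 3.15 and 3.51 CPM with TMP195 and at 7.35, 7.02, 7.98 and 13.3 CPM with KDAC4 H976Y (log2 fold change -1.54 ± 0.27, adjusted p = 8.85e-04). Of the 22 tested collagen chain genes (30 listed), 3 were called higher with TMP195 and 3 lower, with a median log2 fold change of 0.17. The basement membrane chains COL4A1 (0.09) and COL4A2 (0.28) and the fibrillar COL5A1 (0.29) and COL1A1 (0.08) were not called. The counts of collagen chain genes became 8 higher and 2 lower with total counts as library sizes, 1 higher and 6 lower with offsets for GC content and length, 2 higher and 1 lower in the 14-library fit, 5 higher and 1 lower without KDAC4 H976Y replicate 4 and 5 lower without TMP195 replicate 3. Among alternatives, the call was lost (log2 fold change in brackets) for COL6A1 (0.63) with GC and length offsets and COL16A1 (-1.54) in the 14-library fit.

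Enzymes that modify collagen were also divided. Of the 19 tested collagen processing genes (19 listed), 4 were called higher with TMP195 and 2 lower, with a median log2 fold change of 0.15. ADAMTS2 stood at 8.95, 10.2 and 8.55 CPM with TMP195 and at 0, 0, 0 and 0 CPM with KDAC4 H976Y, at least 100.3-fold higher with TMP195. ADAMTS2 (ENSG00000087116, chr5:179110851-179345430) removes the amino-terminal propeptide of procollagen. PLOD2 stood at 154, 144 and 120.5 CPM with TMP195 and at 432, 397, 430.3 and 309.6 CPM with KDAC4 H976Y (log2 fold change -1.49 ± 0.14, adjusted p = 2.67e-05). LOXL1 stood at 77.1, 70.9 and 57.4 CPM with TMP195 and at 30.1, 31.3, 26.2 and 26.1 CPM with KDAC4 H976Y (log2 fold change 1.26 ± 0.12, adjusted p = 2.44e-05). PLOD2 is a lysyl hydroxylase of the collagen telopeptides, and LOXL1 a lysyl oxidase of elastic fibres. The oxidases LOXL4 (1.82) and LOXL2 (1.05) were called higher as well, and LOX (-0.18) was not called. The counts of collagen processing genes became 5 higher and 1 lower with total counts as library sizes, 2 higher and 1 lower with offsets for GC content and length, 4 higher and 0 lower in the 14-library fit, 1 lower without TMP195 replicate 1 and 1 lower without TMP195 replicate 3. Calls were lost, at the log2 fold change in brackets, for PLOD2 (-0.70) and LOXL1 (0.77) with GC and length offsets and PLOD2 (-1.49) in the 14-library fit.

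Among glycoproteins and proteoglycans, the provisional-matrix proteoglycan versican was much lower with TMP195 and the basement membrane proteoglycan perlecan higher. VCAN stood at 46.9, 46.3 and 40.1 CPM with TMP195 and at 306, 274, 282 and 211 CPM with KDAC4 H976Y (log2 fold change -2.59 ± 0.14, adjusted p = 1.43e-06). HSPG2, the perlecan gene, stood at 131, 127 and 117 CPM with TMP195 and at 29.9, 34.7, 33.7 and 34.8 CPM with KDAC4 H976Y (log2 fold change 1.91 ± 0.09, adjusted p = 5.80e-07). TNC stood at 83.9, 81.6 and 72.2 CPM with TMP195 and at 21.3, 24.04, 21.5 and 15.3 CPM with KDAC4 H976Y (log2 fold change 1.93 ± 0.13, adjusted p = 4.68e-06). TNC encodes tenascin C, and the groups did not overlap in any of the 3 genes. Of the 33 tested matrix glycoprotein and proteoglycan genes (41 listed), 6 were called higher with TMP195 and 8 lower, with a median log2 fold change of -0.01. FN1 stood at 1095, 999 and 747 CPM with TMP195 and at 2354, 2162, 2270.4 and 1497 CPM with KDAC4 H976Y (log2 fold change -1.13 ± 0.19, adjusted p = 7.52e-04). Fibronectin (FN1), LTBP1 (-1.71), FBN1 (-1.68), TGFBI (-1.50) and BGN (-1.20) were lower. GPC4 stood at 3.12, 4.00 and 2.04 CPM with TMP195 and at 0, 0, 0 and 0 CPM with KDAC4 H976Y, chosen after its values were seen. GPC4 encodes a glypican. The counts of matrix glycoprotein and proteoglycan genes became 10 higher and 5 lower with total counts as library sizes and 5 higher and 5 lower in the 14-library fit.

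HT1080 cells are known for secreting gelatinases and plasminogen activators. The gelatinase MMP2 was lower with TMP195, and the interstitial collagenase MMP1 higher. MMP2 stood at 46.9, 42.7 and 36.2 CPM with TMP195 and at 344, 327, 325 and 259.6 CPM with KDAC4 H976Y (log2 fold change -2.90 ± 0.14, adjusted p = 6.72e-07). MMP1 stood at 62.6, 59.8 and 51.9 CPM with TMP195 and at 17.8, 18.6, 19.95 and 11.6 CPM with KDAC4 H976Y (log2 fold change 1.75 ± 0.15, adjusted p = 1.49e-05). The MMP2 difference came with the reverse one in its inhibitor TIMP3 above. SERPINB2 stood at 4.14, 4.63 and 4.02 CPM with TMP195 and at 32.9, 42.6, 39.4 and 24.7 CPM with KDAC4 H976Y (log2 fold change -3.04 ± 0.19, adjusted p = 3.25e-06). SERPINB2 encodes PAI-2, an inhibitor of urokinase. MMP14 (-0.32), which activates MMP2 at the cell surface, PLAU (0.05), TIMP1 (-0.57) and TIMP2 (0.62) were not called, and PLAT (2.10) was higher. Of the 23 tested genes of matrix proteases and their inhibitors (32 listed), 6 were called higher with TMP195 and 4 lower, with a median log2 fold change of 0.13. The counts of genes of matrix proteases and their inhibitors became 2 higher and 2 lower in the 14-library fit.

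The integrin subunits ITGA2, ITGB1 and ITGB8 were lower with TMP195, and ITGB2 and ITGB3 higher. ITGA2 stood at 373, 345 and 297 CPM with TMP195 and at 1169, 1178, 1216 and 875 CPM with KDAC4 H976Y (log2 fold change -1.71 ± 0.15, adjusted p = 1.53e-05). ITGB1 stood at 628, 616 and 533 CPM with TMP195 and at 1794, 1800.1, 1946 and 1247 CPM with KDAC4 H976Y (log2 fold change -1.52 ± 0.17, adjusted p = 5.60e-05). ITGA2 and ITGB1 form the collagen receptor alpha 2 beta 1. ITGB8 stood at 1.08, 0.858 and 0.766 CPM with TMP195 and at 15.9, 13.5, 13.3 and 12.2 CPM with KDAC4 H976Y (log2 fold change -3.91 ± 0.20, adjusted p = 1.11e-06). ITGB8 pairs with the alpha V chain and activates latent TGF-beta. Of the 15 tested integrin genes (20 listed), 2 were called higher with TMP195 and 3 lower, with a median log2 fold change of 0.09. ITGB3 (1.34) and ITGB2 (2.98) were the calls upward. The other alpha chains of collagen receptors, ITGA1 (0.02), ITGA10 (0.26) and ITGA11 (-0.43), were not called, and ITGAV (-0.88), ITGA5 (0.12) and ITGA3 (0.60) were not called. Of the 9 tested laminin genes (11 listed), 1 was called higher with TMP195 and 1 lower, with a median log2 fold change of 0.29. LAMA5 stood at 134, 135 and 144 CPM with TMP195 and at 37.8, 39.4, 34.4 and 46.7 CPM with KDAC4 H976Y (log2 fold change 1.81 ± 0.11, adjusted p = 1.99e-06). LAMA4 stood at 172, 159 and 141 CPM with TMP195 and at 351, 355, 368 and 259 CPM with KDAC4 H976Y (log2 fold change -1.08 ± 0.14, adjusted p = 1.34e-04). The counts of integrin genes became 4 higher and 3 lower with total counts as library sizes, 1 higher and 3 lower with offsets for GC content and length and 2 higher and 1 lower in the 14-library fit. The counts of laminin genes became 2 higher and 0 lower with total counts as library sizes, 0 higher and 3 lower with offsets for GC content and length and 0 higher and 0 lower in the 14-library fit. The threshold was missed, at the log2 fold change in brackets, for LAMA5 (0.998) with GC and length offsets, ITGA2 (-1.71), ITGB1 (-1.52), LAMA5 (1.81) and LAMA4 (-1.08) in the 14-library fit and LAMA4 (-0.63) with total counts as library sizes. The same held for LAMA4 (-0.99) in a fit of nuclear protein-coding genes and LAMA4 (-0.97) among genes of at least 10 CPM on average.

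Cadherins other than CDH11 were changed in both directions. Of the 15 tested cadherin genes (26 listed), 5 were called higher with TMP195 and 3 lower, with a median log2 fold change of 0.42. CDH8 stood at 0.600, 0.229 and 1.02 CPM with TMP195 and at 7.22, 5.94, 6.29 and 15.3 CPM with KDAC4 H976Y (log2 fold change -3.77 ± 0.50, adjusted p = 1.76e-04). FAT3 stood at 2.94, 2.80 and 1.98 CPM with TMP195 and at 16.3, 17.3, 14.4 and 18.9 CPM with KDAC4 H976Y (log2 fold change -2.68 ± 0.18, adjusted p = 4.87e-06). CDH8 and FAT3 are known mainly from neurons. PCDH7 (1.56) and PCDH1 (2.23) were higher, and CDH2 (-0.07), the N-cadherin gene of mesenchymal cells, was level. The counts of cadherin genes became 3 higher and 2 lower in the 14-library fit.

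Actin-binding and contractile genes were called in both directions, with the nonmuscle myosin IIB gene among those higher with TMP195. MYH10 stood at 47.6, 44.8 and 43.4 CPM with TMP195 and at 3.61, 2.77, 3.09 and 5.18 CPM with KDAC4 H976Y (log2 fold change 3.70 ± 0.16, adjusted p = 3.50e-07). TAGLN stood at 21.8, 21.1 and 20.2 CPM with TMP195 and at 4.95, 5.84, 6.38 and 4.15 CPM with KDAC4 H976Y (log2 fold change 1.94 ± 0.15, adjusted p = 7.34e-06). MYH11 stood at 7.20, 7.32 and 14.5 CPM with TMP195 and at 1.87, 1.385, 1.40 and 6.01 CPM with KDAC4 H976Y (log2 fold change 2.03 ± 0.47, adjusted p = 0.00452). MYH10 encodes the heavy chain of nonmuscle myosin IIB, TAGLN the actin-binding transgelin and MYH11 the smooth muscle myosin heavy chain. Of the 23 tested actin-binding and contractile genes (30 listed), 4 were called higher with TMP195 and 2 lower, with a median log2 fold change of 0.17. MYL9 (1.31) was the other call upward. ACTA2 (-0.75), TPM2 (-0.69) and MYH9 (-0.04), the nonmuscle myosin IIA gene, were not called, so members of one contractile class stood on both sides of 0. Of the 12 tested intermediate filament genes (21 listed), 2 were called higher with TMP195 and 0 lower, with a median log2 fold change of 0.31. KRT86 stood at 12.2, 12.2 and 10.4 CPM with TMP195 and at 1.74, 1.68, 1.70 and 1.04 CPM with KDAC4 H976Y (log2 fold change 2.86 ± 0.20, adjusted p = 5.05e-06). KRT86 encodes a hair keratin and shares near-identical sequence with KRT81 (0.97), so its level is uncertain. Vimentin (VIM, 0.20), KRT8 (0.35) and KRT18 (0.50) were not called. The counts of actin-binding and contractile genes became 5 higher and 0 lower with total counts as library sizes, 3 higher and 1 lower with offsets for GC content and length and 3 higher and 0 lower in the 14-library fit. No call was made, at the bracketed log2 fold change, for MYH11 (1.95) in the 14-library fit. Intermediate filament genes numbered 4 higher and 0 lower with total counts as library sizes.

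HOX genes keep the positional identity of fibroblasts. Of the 27 tested HOX genes (39 listed), 5 were called higher with TMP195 and 1 lower, with a median log2 fold change of 0.14. HOXB5 stood at 5.94, 5.32 and 8.36 CPM with TMP195 and at 2.01, 2.28, 1.40 and 2.90 CPM with KDAC4 H976Y (log2 fold change 1.65 ± 0.28, adjusted p = 6.96e-04). HOXB3 stood at 10.03, 8.87 and 13.1 CPM with TMP195 and at 4.81, 4.75, 4.69 and 7.47 CPM with KDAC4 H976Y (log2 fold change 1.01 ± 0.21, adjusted p = 0.00257). The tested HOXB genes ran from -0.47 (HOXB7) to 1.65, and HOXD13 (-2.03) was the sole call downward. Of the 19 tested chondro-osteogenic and mesenchymal genes (29 listed), 3 were called higher with TMP195 and 1 lower, with a median log2 fold change of 0.02. TWIST2 stood at 19.1, 18.4 and 16.7 CPM with TMP195 and at 6.68, 8.61, 6.88 and 6.43 CPM with KDAC4 H976Y (log2 fold change 1.32 ± 0.14, adjusted p = 4.22e-05). TBX2 stood at 7.93, 9.21 and 9.51 CPM with TMP195 and at 4.54, 3.07, 3.09 and 4.35 CPM with KDAC4 H976Y (log2 fold change 1.27 ± 0.20, adjusted p = 4.63e-04). SPP1 stood at 3.30, 5.43 and 6.25 CPM with TMP195 and at 13.4, 13.2, 15.4 and 9.54 CPM with KDAC4 H976Y (log2 fold change -1.3805 ± 0.24, adjusted p = 7.58e-04). TWIST2 and TBX2 are mesenchymal transcription factors and SPP1 encodes osteopontin. RUNX2 (0.47), a known target of HDAC4 repression in cartilage, SOX9 (-0.01), SNAI2 (-0.69) and ZEB1 (-0.32) were not called. The counts of HOX genes became 10 higher and 1 lower with total counts as library sizes, 3 higher and 1 lower with offsets for GC content and length, 2 higher and 0 lower in the 14-library fit, 3 higher without KDAC4 H976Y replicate 3, 3 higher without TMP195 replicate 3, 2 lower without KDAC4 H976Y replicate 1, 2 lower without TMP195 replicate 1 and 2 lower without TMP195 replicate 2. The counts of chondro-osteogenic and mesenchymal genes became 4 higher and 0 lower with total counts as library sizes, 1 higher and 0 lower with offsets for GC content and length and 1 higher and 0 lower in the 14-library fit. Among alternatives, the call was lost (log2 fold change in brackets) for HOXB3 (0.64), SPP1 (-0.69) and TBX2 (0.68) with GC and length offsets, HOXB5 (1.64), HOXB3 (1.000), SPP1 (-1.37), TWIST2 (1.34) and TBX2 (1.26) in the 14-library fit, SPP1 (-0.92) with total counts as library sizes and HOXB3 (0.88) and SPP1 (-0.97) with chromosome offsets. Lost too were HOXB3 (0.96) without KDAC4 H976Y replicate 1, HOXB3 (0.95) without KDAC4 H976Y replicate 2, HOXB3 (0.95) without KDAC4 H976Y replicate 3 and HOXB3 (0.84) without TMP195 replicate 3.

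**Figure D4:**
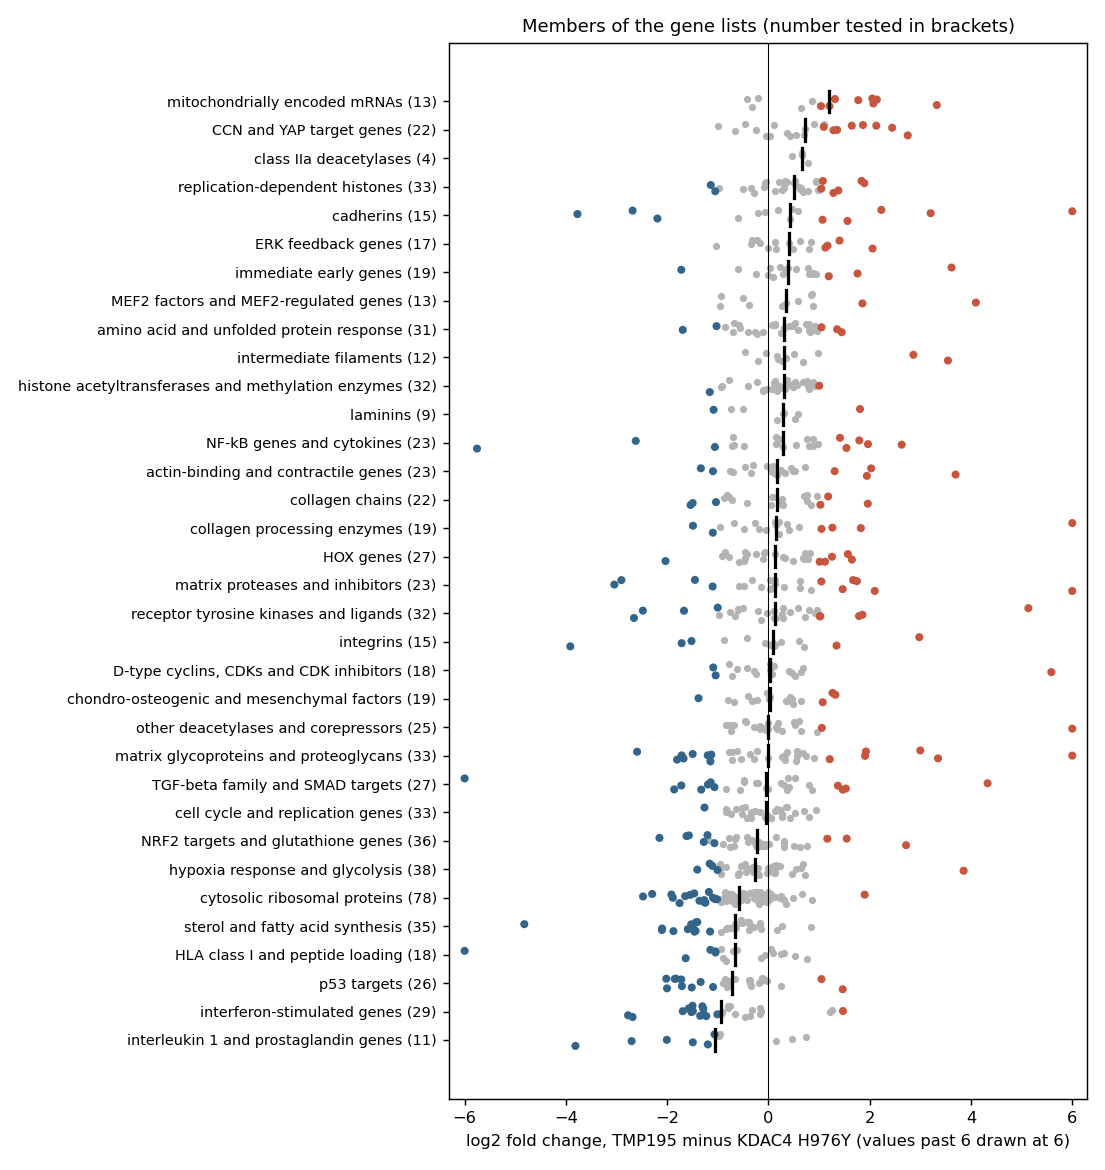
The log2 fold change (TMP195 minus KDAC4 H976Y) of every tested member of each gene list, ordered by list median (black bar); coloured points were called and grey points were not, and values past 6 are drawn at 6. Mitochondrial mRNAs and CCN and YAP target genes lie farthest to the right, and interleukin 1, interferon-stimulated, p53 and sterol genes farthest to the left.

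Genes of cholesterol synthesis were called lower with TMP195 and not higher. These enzymes are driven by SREBP2, which is released when membrane sterol is low. Of the 35 tested sterol and fatty acid genes (38 listed), 0 were called higher with TMP195 and 12 lower, with a median log2 fold change of -0.66. Of the 35, 32 had a negative log2 fold change. LIPG stood at 1.92, 1.49 and 1.85 CPM with TMP195 and at 52.4, 51.5, 52.2 and 42.1 CPM with KDAC4 H976Y (log2 fold change -4.82 ± 0.15, adjusted p = 1.10e-07). LIPG encodes endothelial lipase, a secreted phospholipase that acts on lipoproteins and is no enzyme of sterol synthesis. STARD4 stood at 9.43, 10.2 and 8.93 CPM with TMP195 and at 42.6, 42.8, 42.6 and 35.5 CPM with KDAC4 H976Y (log2 fold change -2.10 ± 0.11, adjusted p = 1.11e-06). IDI1 stood at 11.9, 8.41 and 10.7 CPM with TMP195 and at 49.3, 45.2, 49.3 and 32.1 CPM with KDAC4 H976Y (log2 fold change -2.10 ± 0.18, adjusted p = 1.23e-05). STARD4 carries sterol between membranes and IDI1 isomerises isopentenyl diphosphate. MSMO1 stood at 16.1, 17.4 and 14.4 CPM with TMP195 and at 62.03, 66.97, 65.2 and 38.6 CPM with KDAC4 H976Y (log2 fold change -1.88 ± 0.18, adjusted p = 2.66e-05). CYP51A1 (-1.59), SC5D (-1.53), HMGCS1 (-1.41) and INSIG1 (-1.43) were called lower too. ABCA1 (-1.44), the LXR-driven cholesterol exporter, was also lower. SREBF2 (0.26), SREBF1 (-0.64) and FASN (-0.55) were not called. The counts of sterol and fatty acid genes became 1 higher and 8 lower with total counts as library sizes, 0 higher and 6 lower in the 14-library fit and 1 higher without KDAC4 H976Y replicate 4.

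The promoter of MSMO1, which encodes the sterol C4-methyl oxidase, is shown for its CCAAT boxes, the letters bound by NF-Y, a partner of SREBP; matches to CCAAT or its reverse ATTGG are in capitals. The sequence is the 250 bases before the RefSeq start (GRCh38.p14, chr4:165327419-165327668, strand +).
MSMO1: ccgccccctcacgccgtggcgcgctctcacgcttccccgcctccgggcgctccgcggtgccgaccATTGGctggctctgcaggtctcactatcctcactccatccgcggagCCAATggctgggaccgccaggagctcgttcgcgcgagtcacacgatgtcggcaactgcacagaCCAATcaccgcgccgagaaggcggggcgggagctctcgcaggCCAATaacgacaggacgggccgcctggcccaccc
It holds 4 matches, at 185, 139, 76 and 34 bases before the start. In the upstream 250 bases, on either strand, these letters stand in 22 of 29 tested list members with a promoter entry (75.9%) and in 10102 of 27305 genes (37.0%), and in 8 of the 11 called members. The sterol-response core TCACNCCAC or its reverse GTGGNGTGA stands in 1 of the 29 and in 1.09% of all genes. A match is a description of letters, not a measured site.

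Target genes of p53 were lower in larger number than higher. HT1080 cells are known to carry functional p53, which induces arrest and repair genes together with its own inhibitor MDM2. Of the 26 tested p53 targets (26 listed), 2 were called higher with TMP195 and 9 lower, with a median log2 fold change of -0.71. MDM2 stood at 166, 159 and 182 CPM with TMP195 and at 688, 647, 666 and 739 CPM with KDAC4 H976Y (log2 fold change -2.02 ± 0.11, adjusted p = 1.11e-06). FDXR stood at 16.3, 16.99 and 17.99 CPM with TMP195 and at 70.2, 73.8, 66.04 and 63.9 CPM with KDAC4 H976Y (log2 fold change -2.003 ± 0.09, adjusted p = 5.80e-07). CCNG1 stood at 51.8, 43.4 and 41.7 CPM with TMP195 and at 188, 179.6, 182 and 106 CPM with KDAC4 H976Y (log2 fold change -1.85 ± 0.19, adjusted p = 4.13e-05). MDM2 encodes the ubiquitin ligase of p53, FDXR ferredoxin reductase and CCNG1 cyclin G1, and no library of one group reached the other. TP53INP1 (-1.83), FAS (-1.71), SESN1 (-1.51) and RRM2B (-1.09) were also lower. CDKN1A (-0.77), the p21 gene, BBC3 (-0.89) and BAX (-0.36) were not called, and GDF15 (0.25) and GADD45A (-0.02) were near level. SESN2 (1.05), which other pathways also drive, was called higher. The counts of p53 targets became 1 higher and 12 lower with offsets for GC content and length.

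Interferon-stimulated genes were called lower with TMP195 in 13 of 29 cases. They encode antiviral proteins and are driven by interferon receptors. Of the 29 tested interferon-stimulated genes (35 listed), 1 was called higher with TMP195 and 13 lower, with a median log2 fold change of -0.95. IFI44 stood at 1.14, 0.972 and 0.893 CPM with TMP195 and at 5.75, 9.10, 7.58 and 4.77 CPM with KDAC4 H976Y (log2 fold change -2.77 ± 0.29, adjusted p = 4.59e-05). TRIM22 stood at 24.4, 24.8 and 25.5 CPM with TMP195 and at 85.95, 72.02, 78.1 and 86.7 CPM with KDAC4 H976Y (log2 fold change -1.69 ± 0.10, adjusted p = 1.67e-06). ISG15 stood at 2.70, 2.92 and 2.81 CPM with TMP195 and at 8.42, 10.7, 7.28 and 6.84 CPM with KDAC4 H976Y (log2 fold change -1.57 ± 0.21, adjusted p = 1.74e-04). TRIM22 is a restriction factor and ISG15 a ubiquitin-like modifier, and their KDAC4 H976Y libraries were all above the TMP195 ones. OAS1 (-1.50), IFIT1 (-1.49), DDX60 (-1.35) and IFIH1 (-1.27) were also lower, and OAS3 (1.47) was the sole call upward. STAT2 (-0.15), IRF9 (-0.16), IRF1 (-0.36) and MX1 (-0.92) were not called. The counts of interferon-stimulated genes became 3 higher and 7 lower with total counts as library sizes, 0 higher and 12 lower with offsets for GC content and length, 2 higher without KDAC4 H976Y replicate 1 and 2 higher without KDAC4 H976Y replicate 4. HLA class I genes lay on the same side for the most part. Of the 18 tested HLA class I and peptide loading genes (19 listed), 0 were called higher with TMP195 and 5 lower, with a median log2 fold change of -0.66. ERAP2 stood at 44.9, 41.8 and 41.2 CPM with TMP195 and at 101.2, 99.4, 105 and 70.9 CPM with KDAC4 H976Y (log2 fold change -1.15 ± 0.13, adjusted p = 7.44e-05). HLA-B (0.09), B2M (-0.06), TAP1 (-0.62) and the transactivator NLRC5 (0.31) were not called. Reads of HLA genes depend on how the line's alleles match the reference, so the split among them is uncertain. The counts of HLA class I and peptide loading genes became 1 higher and 2 lower with total counts as library sizes, 0 higher and 3 lower with offsets for GC content and length, 0 higher and 2 lower in the 14-library fit and 1 higher without KDAC4 H976Y replicate 4. Calls were lost, at the log2 fold change in brackets, for ERAP2 (-0.82) with GC and length offsets and ERAP2 (-1.14) in the 14-library fit. They were also lost for ERAP2 (-0.69) with total counts as library sizes and ERAP2 (-0.90) with chromosome offsets.

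Enzymes that lead from membrane lipid to prostaglandin E2 and genes of interleukin 1, a known inducer of this path, were called lower with TMP195 in 6 of 11 cases. Of the 11 tested interleukin 1 and prostaglandin genes (21 listed), 0 were called higher with TMP195 and 6 lower, with a median log2 fold change of -1.06. PLA2G4A stood at 1.20, 1.26 and 0.702 CPM with TMP195 and at 15.9, 16.4, 17.8 and 9.12 CPM with KDAC4 H976Y (log2 fold change -3.81 ± 0.29, adjusted p = 7.98e-06). PTGS2 stood at 5.64, 4.63 and 3.76 CPM with TMP195 and at 34.4, 31.1, 32.2 and 23.8 CPM with KDAC4 H976Y (log2 fold change -2.70 ± 0.17, adjusted p = 3.49e-06). IL1A stood at 3.96, 4.58 and 3.06 CPM with TMP195 and at 16.3, 17.7, 17.1 and 10.6 CPM with KDAC4 H976Y (log2 fold change -2.01 ± 0.21, adjusted p = 4.76e-05). PLA2G4A encodes the phospholipase that frees arachidonic acid, PTGS2 cyclooxygenase 2, and IL1A interleukin 1 alpha. PTGES (-1.49), the terminal synthase, and the receptor chains IL1R1 (-1.20) and IL1RAP (-1.06) were lower as well. IL1B (-0.95) was not called. NF-kB genes were split. Of the 23 tested NF-kB genes and cytokines (33 listed), 5 were called higher with TMP195 and 3 lower, with a median log2 fold change of 0.28. RELB stood at 19.3, 20.9 and 22.6 CPM with TMP195 and at 6.28, 4.85, 4.59 and 6.01 CPM with KDAC4 H976Y (log2 fold change 1.97 ± 0.15, adjusted p = 7.12e-06). SOD2 stood at 45.1, 42.8 and 39.9 CPM with TMP195 and at 217, 203, 192 and 439.9 CPM with KDAC4 H976Y (log2 fold change -2.62 ± 0.29, adjusted p = 5.65e-05). RELB is the subunit of the noncanonical pathway, and NFKB2 (1.41), TNFAIP3 (1.79) and TRAF1 (1.54) were higher with it. SOD2, the mitochondrial superoxide dismutase, was highest in KDAC4 H976Y replicate 4, yet all 4 libraries of that group were above the TMP195 libraries. CCL5 stood at 0.180, 0.0572 and 0.0638 CPM with TMP195 and at 7.62, 2.87, 2.89 and 11.6 CPM with KDAC4 H976Y (log2 fold change -5.76 ± 0.76, adjusted p = 1.61e-04). IL6 (-0.67), CXCL8 (0.97) and NFKBIA (0.16) were not called. With total counts as library sizes the interleukin 1 and prostaglandin genes numbered 1 higher and 4 lower, and the NF-kB genes 10 and 2.

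Redox and metabolic genes were called in both directions. Of the 36 tested NRF2 target and glutathione genes (37 listed), 3 were called higher with TMP195 and 6 lower, with a median log2 fold change of -0.23. FTH1 stood at 244, 227 and 176 CPM with TMP195 and at 687, 731, 696 and 531 CPM with KDAC4 H976Y (log2 fold change -1.62 ± 0.15, adjusted p = 2.53e-05). GCLM stood at 22.8, 24.5 and 20.7 CPM with TMP195 and at 66.7, 73.4, 74.9 and 53.7 CPM with KDAC4 H976Y (log2 fold change -1.57 ± 0.13, adjusted p = 1.12e-05). GPX3 stood at 5.04, 5.03 and 5.36 CPM with TMP195 and at 0.668, 0.396, 0.599 and 1.87 CPM with KDAC4 H976Y (log2 fold change 2.72 ± 0.39, adjusted p = 2.68e-04). FTH1 encodes the heavy chain of ferritin, GCLM the modifier subunit of the enzyme that starts glutathione synthesis, and GPX3 a secreted glutathione peroxidase. HMOX1 (1.16) was higher and AKR1B10 (-2.15) lower, and NQO1 (0.16), TXNRD1 (0.31) and SLC7A11 (0.32) were not called. Of the 38 tested hypoxia and glycolysis genes (41 listed), 1 was called higher with TMP195 and 4 lower, with a median log2 fold change of -0.26. CA12 stood at 19.3, 23.2 and 19.3 CPM with TMP195 and at 1.20, 1.48, 1.496 and 1.45 CPM with KDAC4 H976Y (log2 fold change 3.85 ± 0.17, adjusted p = 3.50e-07). HIF1A stood at 291, 271 and 213 CPM with TMP195 and at 752, 703, 769 and 511 CPM with KDAC4 H976Y (log2 fold change -1.41 ± 0.17, adjusted p = 9.41e-05). LDHA stood at 496, 490.1 and 362 CPM with TMP195 and at 1025, 1083, 1137 and 770.2 CPM with KDAC4 H976Y (log2 fold change -1.16 ± 0.17, adjusted p = 2.81e-04). CA12 encodes a membrane carbonic anhydrase and LDHA lactate dehydrogenase A. VEGFA (0.10), SLC2A1 (-0.54), PGK1 (-0.60) and GAPDH (-0.35) were not called. The counts of hypoxia and glycolysis genes became 5 higher and 0 lower with total counts as library sizes, 1 higher and 0 lower in the 14-library fit and 2 lower without KDAC4 H976Y replicate 3. The threshold was missed, at the log2 fold change in brackets, for HIF1A (-0.73) and LDHA (-0.83) with GC and length offsets, HIF1A (-1.40) and LDHA (-1.16) in the 14-library fit and HIF1A (-0.95) and LDHA (-0.71) with total counts as library sizes. With GC and length offsets ERO1A (-0.55), called lower in the main fit, was not called either. PFKFB4 (-1.37), BNIP3 (-1.09) and SLC16A3 (-1.05) were then called lower, and ALDOC (-1.28) kept its call. For the NRF2 and glutathione genes, total counts as library sizes gave 5 higher and 3 lower.

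Genes of the amino acid and unfolded protein responses mostly stayed within 2-fold. Of the 31 tested genes of these responses (32 listed), 3 were called higher with TMP195 and 2 lower, with a median log2 fold change of 0.32. CHAC1 stood at 38.4, 42.9 and 36.1 CPM with TMP195 and at 14.4, 14.8, 15.4 and 12.2 CPM with KDAC4 H976Y (log2 fold change 1.45 ± 0.11, adjusted p = 7.39e-06). SLC7A5 stood at 951, 953 and 797 CPM with TMP195 and at 349.6, 365, 368 and 325 CPM with KDAC4 H976Y (log2 fold change 1.36 ± 0.11, adjusted p = 9.67e-06). DNAJB9 stood at 3.84, 5.43 and 3.32 CPM with TMP195 and at 14.6, 16.5, 13.1 and 9.75 CPM with KDAC4 H976Y (log2 fold change -1.69 ± 0.23, adjusted p = 1.75e-04). CHAC1 degrades glutathione and is an ATF4 target, SLC7A5 imports large neutral amino acids, and DNAJB9 is an XBP1-driven cochaperone. ATF4 (0.25), ASNS (0.46), DDIT3 (0.12) and HSPA5 (0.58) were not called. The counts of genes of these responses became 11 higher and 1 lower with total counts as library sizes, 3 higher and 1 lower with offsets for GC content and length, 3 higher and 0 lower in the 14-library fit, 1 lower without KDAC4 H976Y replicate 1, 1 lower without KDAC4 H976Y replicate 3 and 1 lower without TMP195 replicate 3. No call was made, at the bracketed log2 fold change, for SLC7A5 (0.82) with GC and length offsets and DNAJB9 (-1.68) in the 14-library fit.

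Mitochondrial mRNAs were called higher with TMP195 in 8 of 13 cases, while mitochondrial ribosomal RNA was lower. Of the 13 tested mitochondrially encoded mRNAs (13 listed), 8 were called higher with TMP195 and 0 lower, with a median log2 fold change of 1.20. MT-ND6 stood at 337, 389 and 471 CPM with TMP195 and at 23.9, 24.7, 27.3 and 88.97 CPM with KDAC4 H976Y (log2 fold change 3.32 ± 0.42, adjusted p = 1.31e-04). MT-CYB stood at 2168, 1752 and 1887 CPM with TMP195 and at 333, 311, 317 and 799 CPM with KDAC4 H976Y (log2 fold change 2.14 ± 0.32, adjusted p = 3.25e-04). MT-ND2 stood at 1290.2, 979.6 and 1134 CPM with TMP195 and at 184, 195, 202 and 503 CPM with KDAC4 H976Y (log2 fold change 2.07 ± 0.33, adjusted p = 4.97e-04). These encode subunits of respiratory complexes I and III. MT-CO3 (-0.43), MT-ND3 (-0.33) and MT-ND4L (-0.20) lay below 0 without a call, so the 13 did not move by a common factor. KDAC4 H976Y replicate 4 was more than 2 times its other replicates in the 3 genes named, as it was in mitochondrial mRNA share (1.41% against 0.676% to 0.701%). The counts of mitochondrially encoded mRNAs became 5 higher and 0 lower in the 14-library fit. Cytosolic ribosomal protein genes were lower for part of the list. Of the 78 tested ribosomal protein genes (78 listed), 1 was called higher with TMP195 and 17 lower, with a median log2 fold change of -0.58. RPS26 stood at 43.7, 41.6 and 31.3 CPM with TMP195 and at 236, 251, 243 and 135 CPM with KDAC4 H976Y (log2 fold change -2.48 ± 0.22, adjusted p = 1.82e-05). RPS27 stood at 64.9, 64.2 and 51.7 CPM with TMP195 and at 332, 318, 372 and 158 CPM with KDAC4 H976Y (log2 fold change -2.30 ± 0.26, adjusted p = 6.79e-05). RPS29 stood at 50.8, 49.02 and 50.3 CPM with TMP195 and at 204, 209, 222 and 119 CPM with KDAC4 H976Y (log2 fold change -1.92 ± 0.19, adjusted p = 3.35e-05). RPLP0 (-0.17), RPS6 (-0.02) and RPL3 (0.22) were near level. Many processed pseudogenes resemble these genes, and 414 of 1094 tested pseudogenes were called higher, so the division of reads between them is uncertain. The counts of ribosomal protein genes became 3 higher and 8 lower with total counts as library sizes and 2 higher and 10 lower with offsets for GC content and length.

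Replication-dependent histone genes, whose mRNAs lack a poly(A) tail and are seen in rRNA-depleted libraries, were called higher more often than lower. Of the 33 tested histone genes (51 listed), 6 were called higher with TMP195 and 2 lower, with a median log2 fold change of 0.51. HIST1H3A stood at 34.3, 36.4 and 33.8 CPM with TMP195 and at 9.62, 10.8, 8.48 and 8.30 CPM with KDAC4 H976Y (log2 fold change 1.89 ± 0.11, adjusted p = 2.44e-06). HIST1H2AJ stood at 75.95, 89.98 and 83.5 CPM with TMP195 and at 20.6, 28.98, 23.9 and 18.2 CPM with KDAC4 H976Y (log2 fold change 1.84 ± 0.14, adjusted p = 8.01e-06). HIST2H2AC stood at 110.4, 109 and 114 CPM with TMP195 and at 44.4, 51.8, 39.8 and 33.4 CPM with KDAC4 H976Y (log2 fold change 1.3798 ± 0.13, adjusted p = 2.13e-05). Histone genes are near-identical, so single members are uncertain. The counts of histone genes became 14 higher and 0 lower with total counts as library sizes, 10 higher and 1 lower with offsets for GC content and length, 4 higher and 1 lower in the 14-library fit, 1 lower without KDAC4 H976Y replicate 2, 1 lower without KDAC4 H976Y replicate 3 and 1 lower without TMP195 replicate 3. Acetyltransferases and methylation enzymes, which oppose or accompany deacetylases on chromatin, were called in 2 cases. Of the 32 tested genes of acetyltransferases and methylation enzymes (32 listed), 1 was called higher with TMP195 and 1 lower, with a median log2 fold change of 0.31. KAT2B stood at 16.99, 18.1 and 15.9 CPM with TMP195 and at 37.6, 39.7, 44.5 and 29.03 CPM with KDAC4 H976Y (log2 fold change -1.16 ± 0.14, adjusted p = 9.15e-05). DOT1L stood at 89.9, 87.8 and 122 CPM with TMP195 and at 44.9, 45.9, 35.6 and 75.3 CPM with KDAC4 H976Y (log2 fold change 1.004 ± 0.22, adjusted p = 0.00326). KAT2B encodes the acetyltransferase PCAF and DOT1L a histone H3 methyltransferase. Of the 32, 20 passed adjusted p under 0.05 and 20 did not overlap between the groups. Over all tested genes these shares were 58.8% and 57%, so the list lay near them. EHMT1 (0.93), SUV39H1 (0.88), EED (-0.94) and SUZ12 (-0.92) lay close to 2-fold, and EP300 (0.22), CREBBP (0.13), EZH2 (0.39) and DNMT1 (0.35) nearer to 0, all without a call. The counts of genes of acetyltransferases and methylation enzymes became 9 higher and 0 lower with total counts as library sizes, 0 higher and 1 lower with offsets for GC content and length, 0 higher and 0 lower in the 14-library fit, 0 higher without KDAC4 H976Y replicate 1, 0 higher and 2 lower without KDAC4 H976Y replicate 2, 0 higher without KDAC4 H976Y replicate 3, 2 higher without KDAC4 H976Y replicate 4 and 0 higher without TMP195 replicate 3. Among alternatives, the call was lost (log2 fold change in brackets) for DOT1L (0.36) with GC and length offsets, KAT2B (-1.15) and DOT1L (1.01) in the 14-library fit, KAT2B (-0.70) with total counts as library sizes and DOT1L (0.88) with chromosome offsets. Lost too were DOT1L (0.95) without KDAC4 H976Y replicate 1, DOT1L (0.95) without KDAC4 H976Y replicate 2, DOT1L (0.87) without KDAC4 H976Y replicate 3 and DOT1L (0.84) without TMP195 replicate 3.

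Among markers of the labelled cell type, VIM, FN1, CD44 and SPARC were abundant in all 7 libraries. Others were low in all of them, such as THY1 (0.0998 to 1.40 CPM), S100A4 (0.120 to 1.07) and NT5E (0.299 to 2.46). COL1A1 (2.08 to 5.17 CPM) and TWIST1 (4.49 to 7.78) were low too. Summed over 11 fibrosarcoma or mesenchymal markers, the level was 5523 to 6829 CPM with TMP195 and 5823 to 7951 CPM with KDAC4 H976Y, and over the 4 secreted proteases of HT1080 it was 1736 to 2044 CPM with TMP195 and 1999 to 2581 CPM with KDAC4 H976Y. The first sum rests mainly on VIM, FN1, CD44 and SPARC. Among the first list FN1 was called lower and THY1 higher (1.68), and VIM was at 3413 to 4177 CPM and 2708 to 3655 CPM. Of 12 epithelial markers, 7, EPCAM and CDH1 among them, were under 1 CPM in every library, and the summed level was 289 to 353 CPM with TMP195 and 199 to 262 CPM with KDAC4 H976Y. The sums rest mainly on KRT8 and KRT18. Of 10 endothelial markers, 5 were under 1 CPM throughout, PECAM1, CDH5 and VWF among them, with sums of 191 to 226 CPM with TMP195 and 139 to 173 CPM with KDAC4 H976Y. TIE1 and ENG carried these sums. TIE1 was at 88.6 to 96.6 CPM with TMP195 and 66.3 to 82.2 CPM with KDAC4 H976Y. ENG, which is also in the mesenchymal list, was at 97.4 to 127 CPM and 66.1 to 87.0 CPM. Of 10 blood markers, 7 were under 1 CPM, PTPRC and CD3E among them, with sums of 149 to 193 CPM with TMP195 and 116 to 185 CPM with KDAC4 H976Y. LCP1 (1.40) and CD68 (-1.11) carried these sums. Neural markers summed to 271 to 291 CPM with TMP195 and 261 to 323 CPM with KDAC4 H976Y, and 2 of 10, SOX2 and S100B, were under 1 CPM. Skeletal muscle markers summed to 16.5 to 17.7 CPM with TMP195 and 20.6 to 27.1 CPM with KDAC4 H976Y, and 9 of 11, MYOD1 and MYOG among them, were under 1 CPM. TUBB3, NCAM1 and ENO2 carried the neural sums, and TNNT1 and MYH3 the muscle sums. Of the tested members, 1 of 4 epithelial markers was called higher, 1 of 4 endothelial lower, 1 of 3 blood higher and 2 lower, 1 of 7 neural higher and 1 of 2 muscle markers lower. Fewer cells of a type and less RNA per cell cannot be told apart in bulk libraries. Calls were lost, at the log2 fold change in brackets, for CLDN4 (0.79) and MBP (0.74) with GC and length offsets, CLDN4 (1.29), CD68 (-1.10) and MBP (1.25) in the 14-library fit, CD68 (-0.66) and TNNT1 (-0.60) with total counts as library sizes and TNNT1 (-0.97) in a fit of nuclear protein-coding genes. They were also lost for CD68 (-0.99) and TNNT1 (-0.95) among genes of at least 10 CPM on average, LCP1 (0.80) with chromosome offsets and CD68 (-0.95), MBP (1.08) and TNNT1 (-0.96) without TMP195 replicate 3. The counts of mesenchymal markers became 0 higher and 1 lower with offsets for GC content and length and 0 higher and 0 lower in the 14-library fit. The counts of HT1080 secreted proteases became 0 higher and 1 lower in the 14-library fit. The counts of epithelial markers became 0 higher and 0 lower with offsets for GC content and length and 0 higher and 0 lower in the 14-library fit. The counts of blood cell markers became 1 higher and 1 lower with total counts as library sizes, 1 higher and 1 lower in the 14-library fit and 1 lower without TMP195 replicate 3. The counts of neural markers became 2 higher and 0 lower with total counts as library sizes, 0 higher and 1 lower with offsets for GC content and length, 0 higher and 0 lower in the 14-library fit and 0 higher without TMP195 replicate 3. The counts of skeletal muscle markers became 0 higher and 0 lower with total counts as library sizes and 0 lower without TMP195 replicate 3. Endothelial calls with total counts as library sizes were 1 higher and 1 lower.

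Genes of chromosome 13 were shifted together. The median log2 fold change of 224 tested nuclear protein-coding genes there was 0.49, and 0.78 with GC and length offsets, with 58 called higher and 4 lower. Chromosome 9 followed, at 0.28 and 0.23 over 510 genes, with 75 called higher and 22 lower. Chromosome 6 stood at 0.07 and 0.13 over 670 genes, with 75 and 58. With the offsets every other chromosome shown had a median between -0.20 and -0.12. The deviations of chromosome 13 were 0.47 to 0.51 in the TMP195 libraries and -0.42 to -0.36 in those of KDAC4 H976Y, so all libraries of a group shared the shift. SPRY2 and LCP1 lie on chromosome 13, and neither was called once a chromosome offset was added. TUBA3C also lies there and DNM1 on chromosome 9, and both kept their calls. DNA copy number was not measured here.

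**Figure D5:**
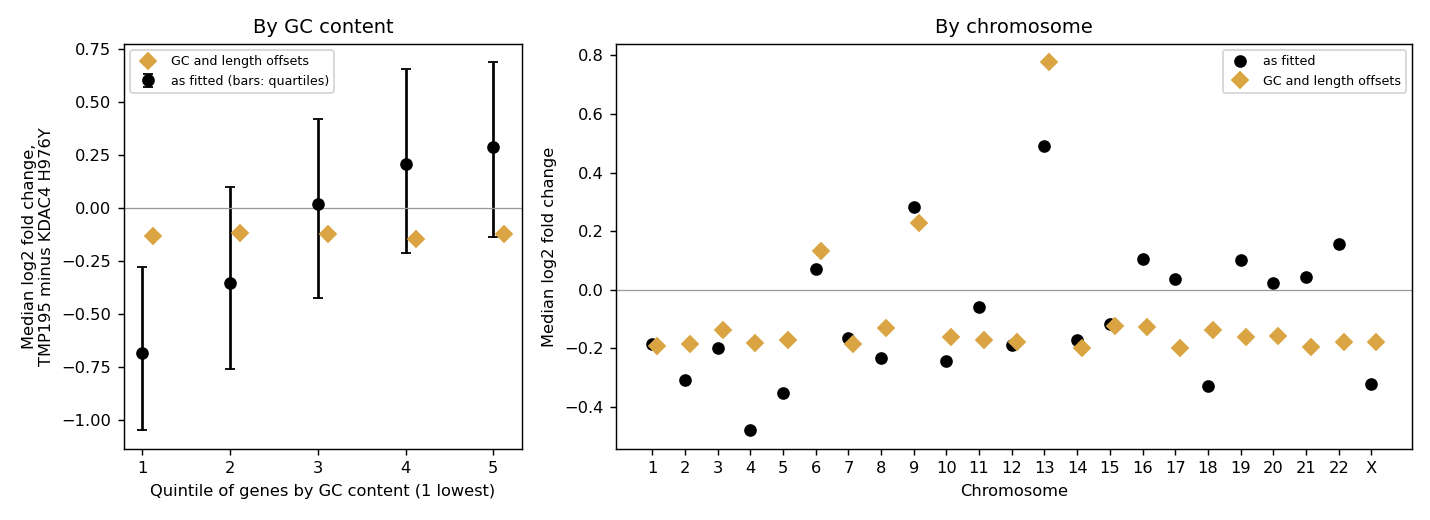
Left, median log2 fold change (TMP195 minus KDAC4 H976Y) of nuclear protein-coding genes by quintile of GC content, with quartile bars; right, the median by chromosome. Black circles are as fitted and yellow diamonds have GC and length offsets. The rise with GC content from -0.68 to 0.29 is gone under the offsets, and chromosome 13 then stands highest at 0.78.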

How the data were processed

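Gene expression was measured by RNA sequencing in 3 TMP195 and 4 KDAC4 H976Y libraries of HT1080 cells. The authors deposited expected counts per gene for 60675 genes, not scaled between libraries. Trimmomatic 0.39, Bowtie2 2.4.5, RSEM 1.3.3, DESeq2 1.38.2 and the build GRCh38 are named, with no roles, per the submitters' processing notes. Not given in the sources used here are the annotation release, strand setting and filters. RSEM divides reads among the transcripts they match, so values of near-identical genes are uncertain. Per the values, 1 of the 15 deposited columns, of another group, holds gene lengths rather than counts and was not used, which leaves 14 count libraries in the series.

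Values were rounded to whole numbers. Gene positions are those of GENCODE on GRCh38 (57055 IDs matched). Genes were kept with filterByExpr (minimum count 10, minimum total 15), which left 16298. Both groups were fitted alone, with TMM scaling, with the quasi-likelihood F test of edgeR 4.0.16 (limma 3.58.1 under R 4.3.3), with a common dispersion of 0.0210. The other groups were kept out of the main model because they hold libraries that differ widely, and a fit of all 14 libraries was an alternative. Benjamini-Hochberg adjustment ran over all tested genes. A call needed an adjusted p under 0.05 and at least 2-fold. Values are counts per 1e+06 scaled counts (CPM), in the order of the replicate numbers. A log2 fold change carries its SE after ±, computed as the fold change over the square root of F. Against a group with no counts, a bound sets 3 counts over the group, and with 1 to 3 counts the ratio has a 95% interval. Both cover counting error only. The script was tested on simulated data.

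The members, gene lists and tests were chosen with earlier results of these data known. Genes named were the 12 largest calls in each direction among nuclear protein-coding genes of at least 10 CPM in the higher group. These also had to show no overlap between the groups. Up to 3 of the largest calls of at least 5 CPM on average in each list were added. So were the class IIa and MEF2 genes. A chromosome Y gene among them, and a few other genes, are not reported here. Further list members are given by their log2 fold change only, and members named with values outside this rule were picked after their values were seen. Alternatives were DESeq2 1.42.0, other scalings and filters, GC, length and chromosome offsets (mgcv 1.9.3, 99.3% of tested genes had a GC value), the replicate number as a block, and leaving out each library. The fit that joins GC, length and chromosome offsets was chosen after seeing the data. Promoters are those of RefSeq (GRCh38.p14).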

Additional observations from a re-analysis of the deposited data

Results flagged for a closer look

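In a group of 4 libraries, a library was singled out where its gap to the nearest other library over the group's range exceeded Dixon's 95% critical value. By chance about 1 in 20 groups would be, if each group were measured on its own. The named genes share the same 4 libraries and were partly chosen by fold change. Their count was therefore not tested against this rate. Of 119 named genes, 28 had such a library in the KDAC4 H976Y group, and in 27 of them it was replicate 4. The range of the other replicates is in brackets. Replicate 4 was far above the others in HSPA12A at 0.622 CPM (0.0989 to 0.134), MTRNR2L1 at 11381 CPM (4819.8 to 5105), TMEM212 at 109 CPM (31.9 to 43.6) and POTEC at 68.4 CPM (18.4 to 25.9). The same held for FRK at 39.8 CPM (12.6 to 15.5), CYSLTR1 at 125 CPM (32.9 to 39.97), FGF7 at 7.67 CPM (4.45 to 4.95) and HOXB3 at 7.47 CPM (4.69 to 4.81). Also in this position were COL16A1 at 13.3 CPM (7.02 to 7.98), CDH8 at 15.3 CPM (5.94 to 7.22), MYH11 at 6.01 CPM (1.385 to 1.87) and SOD2 at 439.9 CPM (192 to 217). Further cases were MT-ND6 at 88.97 CPM (23.9 to 27.3), MT-CYB at 799 CPM (311 to 333), MT-ND2 at 503 CPM (184 to 202) and HDAC4 at 21.98 CPM (14.4 to 14.7). Replicate 4 was far below the others in BTG2 at 21.2 CPM (26.5 to 27.3), CCNE2 at 7.05 CPM (11.9 to 12.3), ITGA2 at 875 CPM (1169 to 1216) and LAMA4 at 259 CPM (351 to 368). The same held for KRT86 at 1.04 CPM (1.68 to 1.74), LIPG at 42.1 CPM (51.5 to 52.4), STARD4 at 35.5 CPM (42.6 to 42.8) and CCNG1 at 106 CPM (179.6 to 188). Also in this position were ERAP2 at 70.9 CPM (99.4 to 105), RPS26 at 135 CPM (236 to 251) and CD68 at 77.97 CPM (125 to 134). Replicate 1 was below the others in CA12, at 1.20 CPM (1.45 to 1.496). Of 6 library measures, 4 had replicate 4 apart. Mitochondrial ribosomal RNA took 31.5% of its counts (16.1% to 17.2% in the others) and mitochondrial mRNA 1.41% (0.676% to 0.701%). Nuclear protein-coding genes took 52.6% (69.05% to 70.4%) and MTRNR2L1 0.892% (0.430% to 0.461%). All 112 named calls were kept without replicate 4.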

How the results depend on the processing

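Fits with RLE size factors, DESeq2, every gene with at least 1 count, chromosome offsets, and GC and length offsets kept the number of calls, and each direction's number, within 1.5 times of 4144, 2108 higher and 2036 lower. Leaving out 1 library gave 3669 to 4892 calls, 1758 to 2770 higher and 1852 to 2147 lower. Total counts as library sizes moved the median of all genes by 0.46 (log2) and gave 4131 higher and 1048 lower. Nuclear protein-coding genes alone gave 2496 calls (1233 higher, 1263 lower), and genes of at least 10 CPM gave 1443 (658 and 785). Fewer genes were tested in both fits, and the share called was also smaller. It was 19.8% and 14.97% of the tested genes, against 25.4% in the main fit. Of the nuclear protein-coding genes in the main fit, 20.5% were called. The 14-library fit gave 2214 (1001 and 1213), with a common dispersion of 0.179 against 0.0210. Without a minimum fold 9576 passed (4443 and 5133). GC, length and chromosome offsets together gave 3438 calls with 1342 lower, and the cause was not tested. The share of calls that were higher was 50.9%, and it was 79.8% with total counts, 60.2% with GC and length offsets and 60.97% with those and chromosome offsets.

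Replicate numbers did not pair the libraries: deviations from the group means of same-numbered libraries correlated at r = 0.16, 0.39 and -0.51 over 11319 genes, and no consistent best match by number was seen. With the replicate number as a block 4911 genes were called (2711 higher, 2200 lower), and with the block and GC and length offsets 4249, of which 65.5% were higher.

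Of 112 named calls, 74 were kept under every alternative. The fit of 14 libraries lost 27, GC and length offsets 18, these offsets with the block 19 and with chromosome offsets 23, total counts 11. HDAC4 changed sign to -0.13 with GC and length offsets and to -0.0555 with the block added, HDAC5 to -0.0605 with chromosome offsets also added, MEF2D to -0.0212 with the block, GC and length, and MEF2A to 0.0712 with total counts. With total counts HDAC5, HDAC7, HDAC9 and MEF2D were called higher, at 1.12, 1.26, 1.13 and 1.05. At 4.82 counts per CPM in the shallowest library, genes under about 1 CPM rest on a few counts.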
